A study of Mus musculus with 10 samples.

Results

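Cytochrome P450 enzymes, encoded by the Cyp genes, were examined in mouse kidneys after unilateral ureteral obstruction (UUO), a model in which the ureter of one kidney is blocked. The members were all genes of the deposited gene table whose symbol begins with Cyp and a number, without Cyp27b1 and Cyp24a1. This gave 44 of 13920 genes, of which 20 belong to family Cyp2, 14 to family Cyp4 and 10 to other families. RNA-seq had been run on 5 UUO and 5 Sham libraries of whole left kidneys from C57BL/6 mice. The UUO mice had the obstruction operation, the Sham mice had the sham version of it, and the treatment entry of both groups reads none. The labels give no sex, age or time after surgery, and do not say whether each library came from its own mouse, so the p-values below measure the spread between libraries, which may be technical.

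P450 enzymes carry a haem group and use molecular oxygen and electrons, passed on by P450 oxidoreductase or by ferredoxin, to oxidise their substrates. In the kidney they are known mostly from the proximal tubule, where Cyp4 enzymes hydroxylate fatty acids and arachidonic acid, Cyp2j and Cyp2c enzymes make epoxides of arachidonic acid, and other Cyp2 enzymes oxidise drugs, solvents and steroids. Some members outside these families act mainly on lanosterol, oxysterols or retinoic acid, and others oxidise drugs or steroids. Several mouse kidney P450 genes depend on androgens, and Cyp4a10 and Cyp4a14 are textbook targets of the fatty acid receptor PPAR alpha.

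Levels were used as the authors deposited them, without a named unit, and were taken as FPKM (fragments scaled to transcript length and library size). Differences were taken on the log2(FPKM + 1) scale as UUO minus Sham, which understates the change of genes with low values. Means are given ± SD over the 5 libraries of a group. Across all genes, libraries of 1 group resembled each other more than libraries of the other group, with Pearson's r of 0.946 to 0.977 among UUO libraries, 0.965 to 0.992 among Sham libraries and 0.783 to 0.885 between the groups. All deposited gene values summed to 282172 to 302519 FPKM in UUO and 327994 to 343018 FPKM in Sham, and 42 to 61 genes per library were listed at 0 in UUO, against 276 to 357 in Sham. Sham 4 stood apart in its markers: 4 adipocyte markers summed to 182 FPKM there and to 0.166 to 6.31 FPKM in the other Sham libraries. Its endothelial (160.5 FPKM), collecting duct (609 FPKM) and urothelial (45.7 FPKM) marker sums were also the highest of the Sham libraries. Of the collecting duct sum, Aqp2 alone held 399 FPKM. Aqp3, Slc4a1 and Avpr2 were also highest in Sham 4, but Slc26a4, Scnn1g and Atp6v1g3 were lowest there among the Sham libraries. UUO 3 stood apart in the sum of 5 adrenal cortex markers, at 45.5 FPKM against 5.86 to 10.7 FPKM in the other UUO libraries. Akr1b7 held 36.8 FPKM of it, and Star and Mrap were also highest in UUO 3, but Scarb1 and Mc2r were not. The sum of T, B and neutrophil markers was 374 FPKM in UUO 3, against 24.3 to 63.9 FPKM in the other UUO libraries. S100a8 (142 FPKM) and S100a9 (224 FPKM) held most of it. None of the T and B cell markers was highest in UUO 3, and Lck, Cd3g and Cd4 were lowest there. Counts of P450 genes are therefore also given without these libraries.

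The summed level of the P450 genes was lower in the kidneys with obstruction. The 44 genes together summed to 1169, 785, 647, 1877 and 1704 FPKM in UUO 1 to 5, against 4251, 4295, 4355, 3250.3 and 4149 FPKM in Sham 1 to 5. The sum averaged 1237 ± 544 FPKM in UUO and 4060.1 ± 459 FPKM in Sham (SD, n = 5 each), 3.28-fold lower in UUO, and no UUO library reached the lowest Sham library. As a share of all deposited FPKM, P450 genes made up 0.220% to 0.621% in UUO and 0.991% to 1.28% in Sham. In whole tissue, fewer cells of a type and less RNA per cell cannot be told apart. The Cyp4 sum was 3.998-fold lower in UUO, the Cyp2 sum 2.99-fold and the sum of the other families 2.72-fold. Of the mean Cyp4 sum, Cyp4b1 alone held 1184 of 1554 FPKM in Sham and 181 of 389 FPKM in UUO. The fall of the Cyp4 sum was thus mostly that of Cyp4b1. Of the other families' mean sum of 272 FPKM in Sham, Cyp7b1 held 166 and Cyp51 74.3 FPKM. In UUO they held 17.3 and 19.1 of 99.8 FPKM. That sum thus fell with Cyp7b1 and Cyp51, while others of these families, such as Cyp1b1, were higher in UUO. Cyp4 genes held 29.5% ± 6.26 of the P450 sum in UUO and 38.2% ± 1.04 in Sham (SD, n = 5 each). Cyp4b1 alone held 13.3% ± 3.97 of the P450 sum in UUO and 29.0% ± 2.29 in Sham.

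Of the 44 members, 38 passed the filter of at least 0.5 FPKM in at least 5 libraries. Tested with limma over all 13202 genes that passed (Benjamini-Hochberg adjusted p below 0.05), 18 members were called lower in UUO, 47.37% of those tested, against 16.1% of all genes tested. Another 11 were called higher, 28.95% against 58.5% of all genes, and 9 were not called. The UUO and Sham values did not overlap in 15 members with UUO lower, where 12.2% of all genes did so, and in 10 with UUO higher, where 47.5% of all genes did so. The median log2 difference was -0.45 over the 38 members and 0.40 over all genes tested. The split changed with the scaling. With median-of-ratios scaling, which brought the median of all genes to 0.00, 8 members were called higher and 21 lower (all genes 34.1% and 34.3%), and with quantile normalization, at a median of -0.07, the counts were 8 and 23 (all genes 30.1% and 36.3%). Without Sham 4 the counts were 11 higher and 19 lower (all genes 60.7% and 16.3%). Without UUO 3 they were 12 and 17 (all genes 57.1% and 15.5%).

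Lower calls were more frequent at higher levels, among P450 genes and among all genes. All 12 members that averaged at least 50 FPKM over the 10 libraries were called lower, where 49.1% of the 965 genes tested at that level were lower and 35.0% higher. Between 5 and 50 FPKM, 4 of 14 members were called lower and 5 higher, where 19.9% of all genes at that level were lower and 52.7% higher. Below 5 FPKM, 2 of 12 members were lower and 6 higher, where 6.69% of all genes were lower and 68.7% higher. The order at the top differed between the groups. Cyp4b1, Cyp2e1, Cyp2j5, Cyp2a4 and Cyp7b1 were the 5 highest in Sham, where they held 75.1% ± 1.40 of the P450 sum, and the same 5 held 61.0% ± 3.92 in UUO (SD, n = 5 each). In UUO the order by mean was Cyp2j5, Cyp2e1, Cyp4b1, Cyp2a4 and Cyp4a14. Some neighbours in that UUO order, such as Cyp2j5 at 278 ± 72.6 and Cyp2e1 at 225 ± 145 FPKM, lay within each other's spread. In Sham the ranges of Cyp2e1 (759 ± 135 FPKM) and Cyp2j5 (635 ± 68.7 FPKM) overlapped, but Cyp2e1 was the higher in every library. Passage through the filter by 1 group alone forces a difference, and this applied to Cyp4f18 and Cyp3a13 (through UUO) and to Cyp2f2 and Cyp4f14 (through Sham). Of the 34 members besides these, 9 were called higher and 16 lower. Among all genes tested, 859 passed through UUO alone and 27 through Sham alone. The shares of all genes were not computed without them, so these counts have no matching background.

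**Figure D1:**
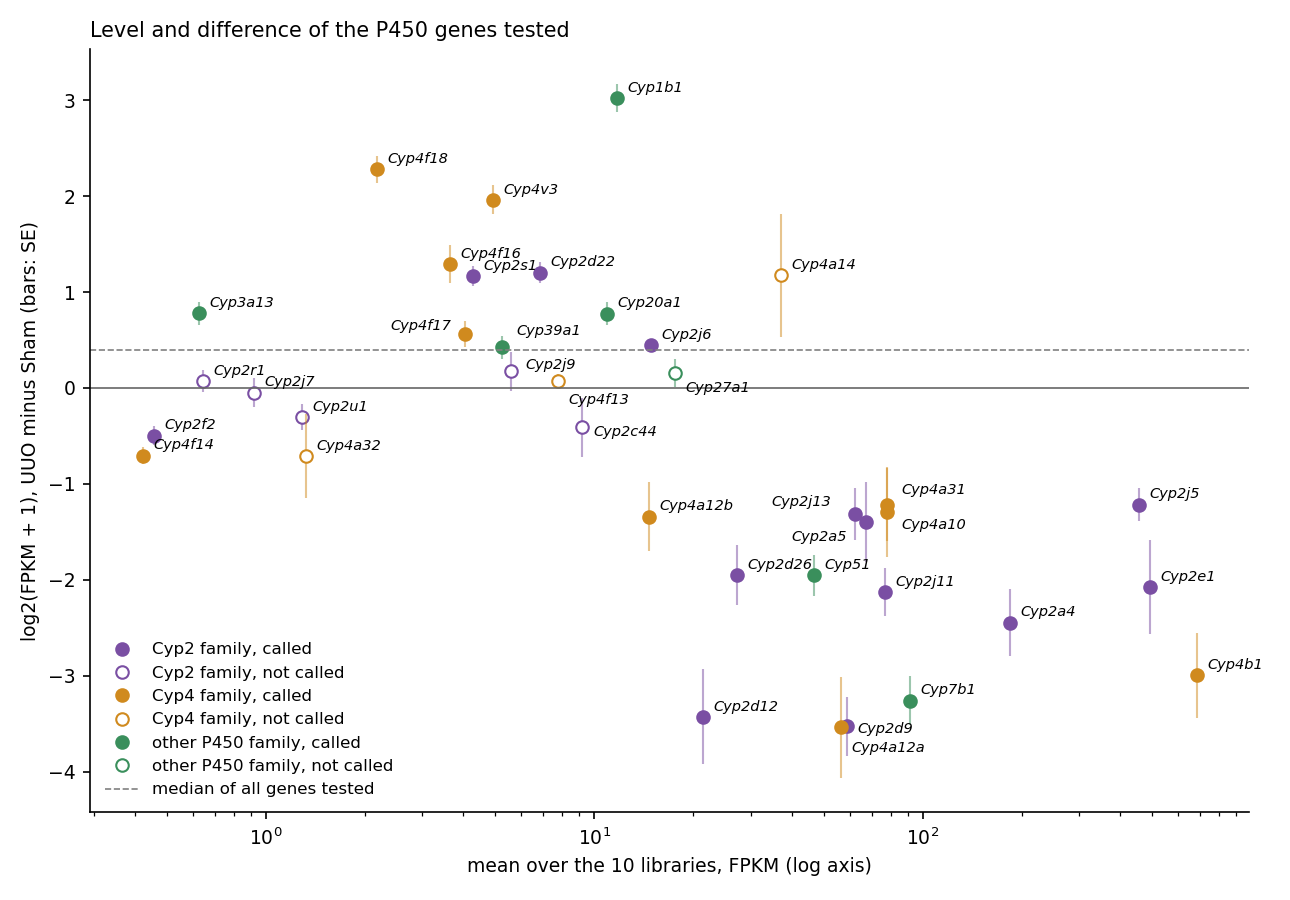
Mean level over the 10 libraries (x, FPKM, log axis) and difference in log2(FPKM + 1), UUO minus Sham (y, bars are SE), for the 38 P450 genes tested, coloured by family, with filled points called by limma and open points not called. All 12 members at 50 FPKM or more lie below 0, and the dashed line marks the median of all genes tested, 0.40. Cyp2j6 and Cyp39a1 lie above 0 here and below 0 under median-of-ratios scaling (-0.030 and -0.0032), Cyp39a1 also under quantile normalization (-0.086).

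Among the drug- and solvent-oxidising Cyp2 genes, Cyp2e1, which oxidises ethanol, acetone and small solvents, had the highest level. Cyp2e1 (chr7:140763739-140774987 on the plus strand, GRCm38) had 264, 109, 50.1, 412 and 287 FPKM in UUO 1 to 5, against 869, 850.2, 811, 539.7 and 723 FPKM in Sham 1 to 5. Every UUO library was below every Sham library, with an 8.23-fold range within UUO and a 1.61-fold range within Sham. The mean was 225 ± 145 FPKM in UUO and 759 ± 135 FPKM in Sham (SD, n = 5 each), a log2 difference of -2.07, SE 0.49, limma adjusted p = 0.00269. One annotated transcript carried 94.9% of the gene's FPKM in UUO and 95.5% in Sham.

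Cyp2a4 and Cyp2a5 on chromosome 7 encode a testosterone hydroxylase and a coumarin hydroxylase, and they differ at 23 of 1482 coding bases. The stretch from coding base 595 to 654 in exon 4 is shown because it holds 3 of those differences, in capitals, and because reads that match both genes alike cannot be told apart: 36.1% of the 50-base windows of the Cyp2a4 transcript also occur in Cyp2a5. In the order Cyp2a4 to Cyp2a5, counted from the first coding base, the differences are T603G, A607C and C625T (GENCODE M21 transcripts, plus strand, chr7:26309029-26309088 for Cyp2a4 and chr7:26837192-26837251 for Cyp2a5).
Cyp2a4: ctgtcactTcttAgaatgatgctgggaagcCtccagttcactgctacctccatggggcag
Cyp2a5: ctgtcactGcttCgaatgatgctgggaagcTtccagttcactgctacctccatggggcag

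Cyp2a4 had 92.3, 22.4, 37.9, 92.1 and 69.9 FPKM in UUO 1 to 5, against 255, 336, 316, 286 and 341 FPKM in Sham 1 to 5. The groups did not overlap, and the mean was 62.9 ± 31.7 FPKM in UUO and 307 ± 35.9 FPKM in Sham (log2 difference -2.45, SE 0.35, limma adjusted p = 8.34e-05). Cyp2a5 had 41.1, 14.8, 16.96, 69.3 and 62.4 FPKM in UUO 1 to 5, against 109, 75.6, 125, 67.5 and 92.8 FPKM in Sham 1 to 5. Here UUO 4 lay above the lowest Sham library, Sham 4, so the groups overlapped, at a log2 difference of -1.400, SE 0.42, limma adjusted p = 0.0103. The ratio of Cyp2a4 to Cyp2a5 was 1.12 to 2.25 in UUO and 2.34 to 4.44 in Sham. Summed, the pair averaged 104 ± 54.4 FPKM in UUO and 401 ± 39.6 FPKM in Sham (limma adjusted p = 0.000302), 3.86-fold lower in UUO.

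The Cyp2d genes on chromosome 15 went both ways. Cyp2d9, a testosterone hydroxylase that is male-biased in mouse liver, had 13.03, 3.01, 7.399, 12.4 and 10.6 FPKM in UUO 1 to 5, against 116, 99.7, 128, 86.3 and 112 FPKM in Sham 1 to 5. With 9.28 ± 4.13 FPKM in UUO and 108 ± 15.9 FPKM in Sham, it fell 11.7-fold (log2 difference -3.53, SE 0.30, limma adjusted p = 2.36e-06). Cyp2d12, which shares 92.2% of its coding bases with Cyp2d9, had 5.01, 0.976, 0.198, 8.62 and 3.55 FPKM in UUO 1 to 5, against 42.1, 53.1, 41.2, 25.9 and 33.1 FPKM in Sham 1 to 5. Its UUO values spread 43.5-fold, from the 0.198 FPKM of UUO 3 to the 8.62 FPKM of UUO 4, and all lay below the Sham values (log2 difference -3.43, SE 0.50, limma adjusted p = 9.36e-05). Summed, Cyp2d9 and Cyp2d12 averaged 13.0 ± 7.09 FPKM in UUO and 147 ± 21.6 FPKM in Sham. Cyp2d26 had 11.6, 5.64, 5.32, 19.2 and 15.6 FPKM in UUO 1 to 5, against 49.8, 44.96, 46.6, 32.4 and 40.2 FPKM in Sham 1 to 5. It fell without overlap (log2 difference -1.95, SE 0.31, limma adjusted p = 0.000195). Cyp2d22, often taken as the mouse counterpart of human CYP2D6, had 9.58, 8.53, 9.16, 10.97 and 11.3 FPKM in UUO 1 to 5, against 4.07, 2.93, 3.597, 4.45 and 3.66 FPKM in Sham 1 to 5. It was the Cyp2d gene that rose, 2.65-fold, with no overlap and with a UUO range of 1.32-fold (log2 difference 1.203, SE 0.11, limma adjusted p = 2.6e-06).

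The arachidonic acid epoxygenases of the Cyp2j group form a cluster of 7 genes over 636.6 kb of chromosome 4 (chr4:96027534-96664154), and calls differed between neighbours. Cyp2j5, the epoxygenase known as abundant in mouse proximal tubules, had 237, 241, 204, 334 and 375 FPKM in UUO 1 to 5, against 643, 672, 675, 514 and 669 FPKM in Sham 1 to 5. All UUO values lay below all Sham values, 278 ± 72.6 FPKM in UUO and 635 ± 68.7 FPKM in Sham, 2.28-fold lower (log2 difference -1.22, SE 0.17, limma adjusted p = 6.86e-05). Cyp2j11 had 28.9, 17.5, 17.2, 38.5 and 45.1 FPKM in UUO 1 to 5, against 118, 129, 132, 105 and 136 FPKM in Sham 1 to 5. This was the largest fall of the cluster (log2 difference -2.13, SE 0.25, limma adjusted p = 1.99e-05). Cyp2j13 had 26.5, 33.2, 19.02, 53.96 and 50.3 FPKM in UUO 1 to 5, against 106, 83.7, 104, 62.1 and 83.3 FPKM in Sham 1 to 5. It also fell without overlap (log2 difference -1.31, SE 0.27, limma adjusted p = 0.00108).

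Between them on the chromosome, Cyp2j6 had 18.7, 17.7, 16.2, 17.3 and 17.1 FPKM in UUO 1 to 5, against 11.98, 13.5, 12.9, 12.4 and 11.6 FPKM in Sham 1 to 5. It was called higher by a small amount with a narrow spread, 17.4 ± 0.893 FPKM in UUO and 12.5 ± 0.742 FPKM in Sham (log2 difference 0.45, SE 0.06, limma adjusted p = 8.01e-05), but median-of-ratios scaling turned the difference to -0.030 (limma adjusted p = 0.747) and quantile normalization left it at 0.17. Cyp2j9 had 5.36, 5.51, 3.49, 8.13 and 7.57 FPKM in UUO 1 to 5, against 6.03, 6.09, 6.07, 3.54 and 3.99 FPKM in Sham 1 to 5. It was not called (log2 difference 0.17, SE 0.21, limma adjusted p = 0.461), and the value was -0.26 and -0.31 under the 2 scalings. Cyp2j7 averaged 0.907 ± 0.438 FPKM in UUO and 0.933 ± 0.142 FPKM in Sham and was not called (limma adjusted p = 0.779), but was called lower after quantile normalization (-0.69, adjusted p = 0.00201). Cyp2j8, at 0.267 ± 0.171 FPKM in UUO and 0.339 ± 0.184 FPKM in Sham, did not pass the filter.

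**Figure D2:**
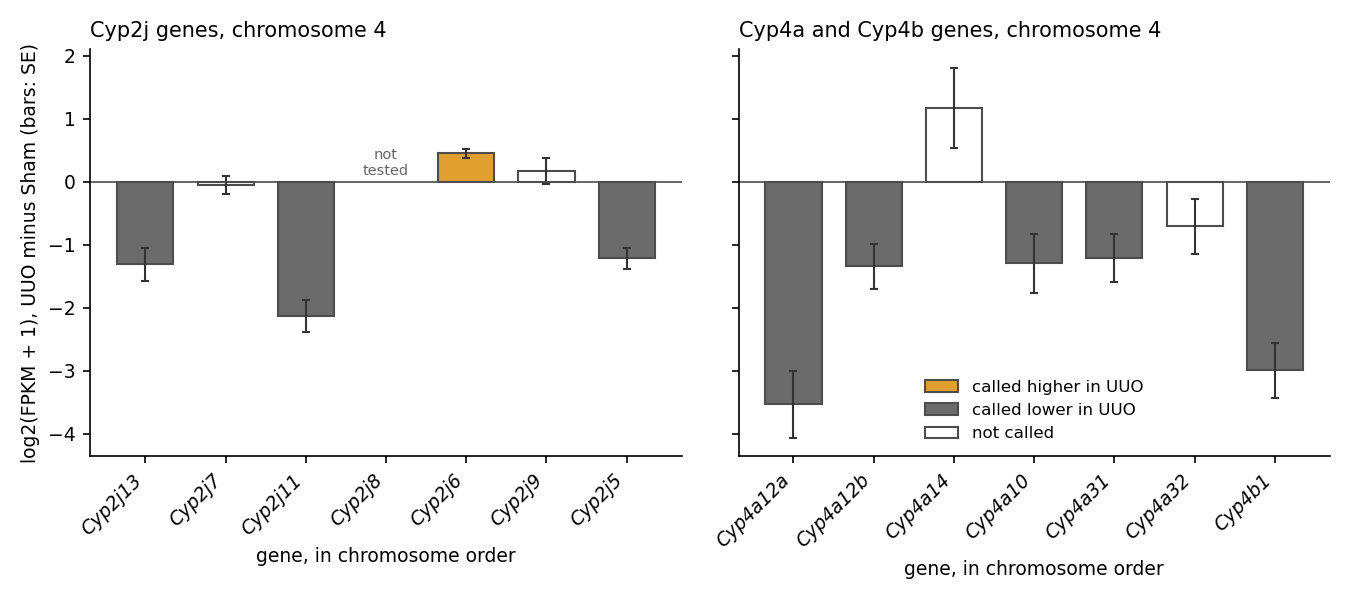
Difference in log2(FPKM + 1), UUO minus Sham, for the 7 Cyp2j genes (left) and the 7 Cyp4a and Cyp4b genes (right) of chromosome 4, in chromosome order; bars are limma estimates with SE, grey called lower, yellow called higher, white not called. In the Cyp2j cluster 3 genes were called lower and 1, Cyp2j6, higher, which lay at -0.030 under median-of-ratios scaling. In the Cyp4a and Cyp4b cluster 5 were called lower and Cyp4a14 lay at 1.17 without a call.

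The remaining Cyp2 genes were low in both groups. Cyp2s1, known from epithelia outside the liver, had 6.3, 6.06, 5.37, 6.69 and 6.98 FPKM in UUO 1 to 5, against 2.65, 2.78, 2.23, 1.74 and 1.88 FPKM in Sham 1 to 5. It rose 2.78-fold without overlap (log2 difference 1.17, SE 0.11, limma adjusted p = 3.72e-06). Cyp2c44, an epoxygenase of the kidney, had 7.35, 5.32, 3.17, 10.6 and 14.8 FPKM in UUO 1 to 5, against 10.8, 8.67, 12.4, 8.77 and 10.3 FPKM in Sham 1 to 5. It was not called (log2 difference -0.41, SE 0.30, limma adjusted p = 0.237), but was called lower with median-of-ratios scaling (-0.86, adjusted p = 0.0304) and without UUO 5 (-0.64, adjusted p = 0.0426), both by limma. Cyp2u1, a fatty acid hydroxylase, averaged 1.07 ± 0.457 FPKM in UUO and 1.51 ± 0.157 FPKM in Sham and Cyp2r1, a vitamin D hydroxylase, 0.686 ± 0.217 FPKM in UUO and 0.602 ± 0.206 FPKM in Sham, and neither was called (limma adjusted p = 0.0617 and 0.577). Cyp2u1 was called lower with median-of-ratios scaling (-0.58, limma adjusted p = 0.00202), after quantile normalization (-0.95, adjusted p = 9.78e-05) and without UUO 1 (-0.41, adjusted p = 0.00515), and Cyp2r1 after quantile normalization (-0.57, adjusted p = 0.00134). Cyp2f2, best known from airway club cells, was called lower at 0.205 ± 0.0862 FPKM in UUO and 0.707 ± 0.22 FPKM in Sham. Cyp2b10, a target of the receptor CAR in mouse liver, did not pass the filter, at 0 to 0.142 FPKM in UUO and 0.214 to 1.21 FPKM in Sham.

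In the Cyp4 family, Cyp4b1, an omega-hydroxylase of fatty acids and of some furans, was the most abundant P450 gene of the Sham kidney. Cyp4b1 (chr4:115624725-115647723 on the minus strand, GRCm38) had 146, 91.9, 52.4, 348 and 265 FPKM in UUO 1 to 5, against 1316, 1142, 1356, 864 and 1242 FPKM in Sham 1 to 5. The highest UUO library, UUO 4, was below the lowest Sham library, Sham 4, and the mean was 181 ± 123 FPKM in UUO and 1184 ± 197 FPKM in Sham, 6.55-fold lower (log2 difference -2.996, SE 0.44, limma adjusted p = 0.000109). Its share of the P450 sum was 13.3% ± 3.97 in UUO and 29.0% ± 2.29 in Sham (SD, n = 5 each).

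Cyp4a12a, the androgen-dependent omega-hydroxylase of arachidonic acid in the mouse kidney, had 4.41, 6.81, 1.66, 24.4 and 15.2 FPKM in UUO 1 to 5, against 166, 99.7, 86.2, 82.97 and 77.95 FPKM in Sham 1 to 5. It fell 9.77-fold on the means, without overlap (log2 difference -3.54, SE 0.53, limma adjusted p = 0.000116). Cyp4a12b, 98.6% identical to it over the coding bases, had 3.97, 8.39, 3.05, 13.5 and 14.5 FPKM in UUO 1 to 5, against 27.2, 21.2, 19.1, 18.6 and 17 FPKM in Sham 1 to 5. Its fall was 2.38-fold (log2 difference -1.34, SE 0.36, limma adjusted p = 0.00556). The ratio of Cyp4a12a to Cyp4a12b was 0.544 to 1.80 in UUO and 4.45 to 6.11 in Sham. Both values depend on how the authors' counting divided shared reads, since 49.4% of the 50-base windows of Cyp4a12b occur in Cyp4a12a. Their sum was 19.2 ± 14.2 FPKM in UUO and 123 ± 40.4 FPKM in Sham.

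Cyp4a10, Cyp4a31 and Cyp4a14 lie side by side in the same cluster and received different calls. Cyp4a10 had 34.2, 17.4, 20.9, 84 and 97.03 FPKM in UUO 1 to 5, against 60.8, 157, 106, 103 and 96.8 FPKM in Sham 1 to 5. UUO 4 and UUO 5 lay within the Sham range, and the call was lower (log2 difference -1.297, SE 0.47, limma adjusted p = 0.0267). That call was lost when UUO 1, UUO 2, UUO 3 or Sham 2 was left out, with limma adjusted p of 0.0532, 0.0639, 0.064 and 0.0643. Cyp4a31 had 38.1, 27.4, 20.1, 80.1 and 89.7 FPKM in UUO 1 to 5, against 83.3, 149, 103, 93.02 and 92.4 FPKM in Sham 1 to 5. Only UUO 5 reached the Sham range, and the gene was called lower in all 19 alternatives (log2 difference -1.22, SE 0.38, limma adjusted p = 0.0137).

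Cyp4a14, also a fatty acid hydroxylase, had 21.6, 17.7, 22.97, 86.3 and 121 FPKM in UUO 1 to 5, against 4.501, 39.5, 19.5, 23.8 and 15.3 FPKM in Sham 1 to 5. UUO 4 and UUO 5 stood above every Sham library, whereas the other 3 UUO libraries lay within the Sham range, and the difference was not called (log2 difference 1.17, SE 0.64, limma adjusted p = 0.117). The ratio of Cyp4a14 to Cyp4a10 within a library was 0.631 to 1.24 in UUO and 0.0740 to 0.252 in Sham, so these ranges did not overlap. This ratio, like the others between related genes, was chosen after its values were seen and was not tested. Cyp4a32, 95.4% identical to Cyp4a10, averaged 0.61 ± 0.453 FPKM in UUO and 2.04 ± 1.75 FPKM in Sham and was not called (limma adjusted p = 0.158), but was called lower after quantile normalization (-1.24, adjusted p = 0.0247), without Sham 1 (-0.99, adjusted p = 0.0498) and without Sham 4 (-0.99, adjusted p = 0.0442).

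**Figure D3:**
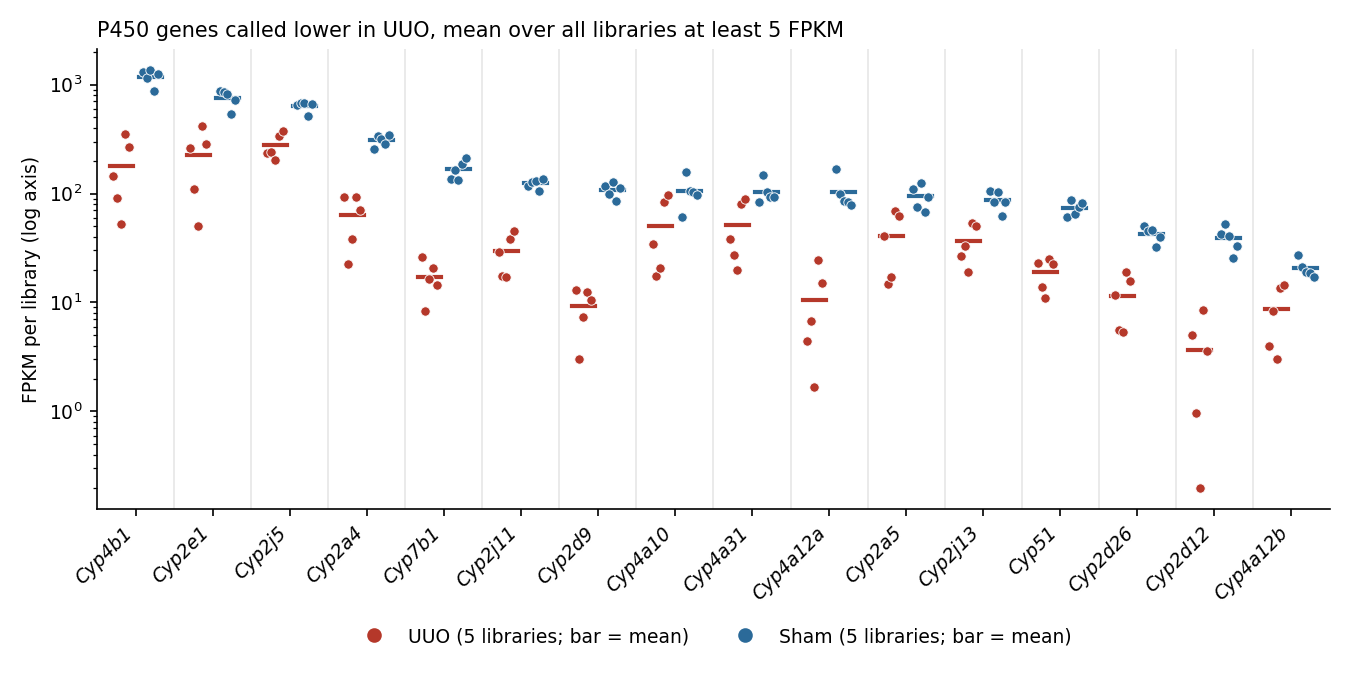
FPKM in each library (log axis) of the 16 P450 genes called lower in UUO that averaged at least 5 FPKM over all libraries; red points are the 5 UUO and blue points the 5 Sham libraries, and bars are group means. UUO and Sham points do not overlap in 13 of them; they overlap for Cyp2a5, Cyp4a10 and Cyp4a31.

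Of the 6 Cyp4f and Cyp4v genes tested, which act on leukotrienes and other fatty acids, 4 were called higher and 1 lower. All lay at levels under 10 FPKM, beside 58.5% of all genes called higher and 16.1% lower. Among these calls, those of Cyp4f18 (higher) and Cyp4f14 (lower) were forced, since each gene passed the filter through 1 group alone. Cyp4v3, the mouse counterpart of the gene mutated in Bietti crystalline dystrophy, had 8.84, 9.86, 8.91, 7.09 and 7.18 FPKM in UUO 1 to 5, against 1.12, 1.17, 0.96, 2.37 and 1.58 FPKM in Sham 1 to 5. It rose 5.82-fold without overlap (log2 difference 1.96, SE 0.15, limma adjusted p = 1.07e-06). Cyp4f18, a leukotriene B4 hydroxylase of mouse neutrophils, had 4.79, 4.77, 5.71, 3.09 and 3.06 FPKM in UUO 1 to 5, against 0.137, 0.0565, 0.157, 0 and 0 FPKM in Sham 1 to 5. It was listed at 0 in 2 Sham libraries, and its log2 difference of 2.28, SE 0.14, limma adjusted p = 2.95e-07, became 6.57 with a pseudocount of 0.01 in place of 1. Cyp4f16 had 4.69, 8.02, 7.72, 3.25 and 4.55 FPKM in UUO 1 to 5, against 1.53, 1.64, 1.48, 2.12 and 1.34 FPKM in Sham 1 to 5. It rose without overlap (log2 difference 1.29, SE 0.20, limma adjusted p = 0.000143), and 24.1% of the 50-base windows of its transcript occur in Cyp4f37.

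Cyp4f17 had 4.13, 5.04, 6.82, 3.71 and 5.56 FPKM in UUO 1 to 5, against 3.16, 2.897, 2.55, 3.01 and 3.68 FPKM in Sham 1 to 5. It was called higher (log2 difference 0.56, SE 0.14, limma adjusted p = 0.0033), but not under median-of-ratios scaling (0.15) or quantile normalization (0.0036). Cyp4f13 had 7.99, 7.39, 7.56, 8.84 and 7.99 FPKM in UUO 1 to 5, against 8, 8.25, 7.37, 7.07 and 6.88 FPKM in Sham 1 to 5. It was not called (log2 difference 0.07, SE 0.07, limma adjusted p = 0.374), but was called lower at -0.38 with median-of-ratios scaling and at -0.33 after quantile normalization, and higher at 0.25 with equal sums. Cyp4f14, a leukotriene hydroxylase of mouse liver, was called lower at 0.0799 ± 0.076 FPKM in UUO and 0.767 ± 0.18 FPKM in Sham. Cyp4f15 did not pass the filter, at 0 to 2.87 FPKM in UUO and 0.0384 to 0.805 FPKM in Sham. With a pseudocount of 0.01, the log2 differences of Cyp4f14 and Cyp2f2 were -3.95 and -1.81 in place of -0.71 and -0.50.

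Of the other families, the sterol enzymes Cyp7b1 and Cyp51 fell. Cyp7b1, the oxysterol hydroxylase that also acts on steroid hormones, had 25.98, 8.37, 16.5, 20.9 and 14.5 FPKM in UUO 1 to 5, against 136, 166, 133, 187 and 209.7 FPKM in Sham 1 to 5. Every UUO value was under the lowest Sham value, 17.3 ± 6.65 FPKM in UUO and 166 ± 32.9 FPKM in Sham, 9.64-fold lower (log2 difference -3.26, SE 0.25, limma adjusted p = 1.17e-06). Cyp51, the lanosterol demethylase of cholesterol synthesis, had 23.1, 13.99, 10.9, 25.1 and 22.4 FPKM in UUO 1 to 5, against 61.2, 87.9, 64.2, 75.6 and 82.3 FPKM in Sham 1 to 5. It too fell without overlap, 3.89-fold (log2 difference -1.96, SE 0.22, limma adjusted p = 1.33e-05). Cyp27a1, the mitochondrial sterol hydroxylase, had 19.3, 18.7, 12.6, 21.7 and 21.3 FPKM in UUO 1 to 5, against 16.3, 19.7, 17.6, 13.4 and 15.7 FPKM in Sham 1 to 5. It was not called (log2 difference 0.16, SE 0.15, limma adjusted p = 0.344), but was called higher with equal sums (0.34, adjusted p = 0.0427) and without UUO 3 (0.28, adjusted p = 0.0311). Cyp39a1, an oxysterol hydroxylase, had 6.79, 5.88, 6.59, 6.201 and 5.22 FPKM in UUO 1 to 5, against 4.37, 3.402, 3.82, 5.88 and 4.37 FPKM in Sham 1 to 5. Its values overlapped, and although called higher (log2 difference 0.42, SE 0.12, limma adjusted p = 0.00734), it lay at -0.0032 under median-of-ratios scaling and -0.086 after quantile normalization. Cyp46a1, the cholesterol hydroxylase best known from neurons, did not pass the filter at 0.6 ± 0.126 FPKM in UUO and 0.243 ± 0.0643 FPKM in Sham.

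Cyp1b1, a target of the aryl hydrocarbon receptor (AhR) that oxidises oestradiol and is known from mesenchymal and vascular cells, had 22.96, 23.2, 23.3, 24.3 and 14.4 FPKM in UUO 1 to 5, against 1.93, 1.28, 1.93, 1.52 and 2.16 FPKM in Sham 1 to 5. It rose 12.3-fold on means of 21.6 ± 4.09 FPKM in UUO and 1.76 ± 0.355 FPKM in Sham (log2 difference 3.02, SE 0.15, limma adjusted p = 6.13e-08). UUO 5 lay apart from the other UUO libraries and still above every Sham library. Cyp1a1, the classical AhR target, did not pass the filter, at 0.134 to 2.02 FPKM in UUO and 0.136 to 0.531 FPKM in Sham. Cyp20a1, a P450 without an established substrate, had 14.8, 14.1, 16.1, 12.6 and 12.4 FPKM in UUO 1 to 5, against 6.83, 6.71, 7.41, 10.4 and 7.76 FPKM in Sham 1 to 5. It rose 1.79-fold without overlap (log2 difference 0.78, SE 0.12, limma adjusted p = 0.000116). Cyp3a13, a drug-oxidising enzyme of gut and liver, had 1.16, 1.17, 1.602, 0.756 and 0.633 FPKM in UUO 1 to 5, against 0.247, 0.163, 0.197, 0.0841 and 0.251 FPKM in Sham 1 to 5. It was called higher (log2 difference 0.78, SE 0.12, limma adjusted p = 0.000154), but not under quantile normalization (0.13). Cyp26a1, which degrades retinoic acid, did not pass the filter, at 0.593 ± 0.131 FPKM in UUO and 0.124 ± 0.0796 FPKM in Sham. Over the other families together the median log2 difference of the 7 tested genes was 0.42, but -0.0032 under median-of-ratios scaling and -0.084 after quantile normalization.

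**Figure D4:**
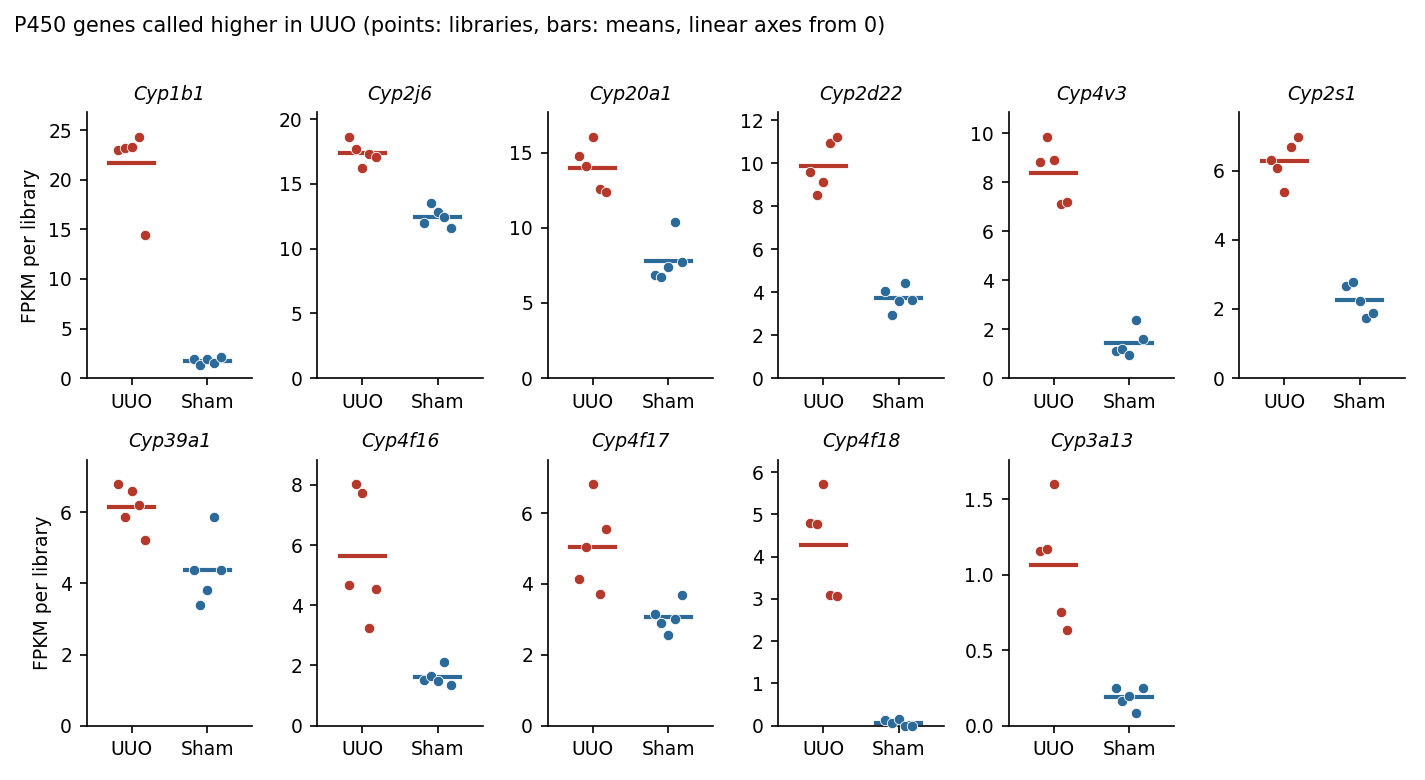
FPKM in each library (linear axes from 0) of the 11 P450 genes called higher in UUO; red points are the 5 UUO and blue points the 5 Sham libraries, and bars are group means. Values overlap for Cyp39a1 alone; Cyp39a1 and Cyp2j6 changed sign under median-of-ratios scaling, and Cyp39a1 also under quantile normalization.

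Promoters were looked up in RefSeq (GRCm38.p6) and found for 31 of the 44 members. A TATA box was searched as TATAAA on both strands in the 300 bases around the start. It was present in 6 of 12 members called lower, 0 of 8 called higher, 1 of 5 not called and 2 of 6 not tested. Among all 32851 promoters the share was 13.6%. The 6 called lower include the near-identical pair Cyp2a4 and Cyp2a5, and a link of the motif with direction was not tested. The 120 bases before the RefSeq start are shown for 3 members that fell and hold the motif, in capitals, at 31 bases (Cyp2e1, chr7:140763699-140763818), 28 bases (Cyp2a4, chr7:26307072-26307191) and 29 bases (Cyp2a5, chr7:26835219-26835338) before the start, all on the plus strand. The start is that of RefSeq, which for these 3 genes and for Cyp51 lies inside the gene span of the deposited table, so each of these stretches lies partly inside that span, most of the Cyp2e1 stretch included. The promoters of Cyp2a4 and Cyp2a5 were alike at 294 of 301 aligned bases, beside falls of 4.88-fold and 2.30-fold.
Cyp2e1: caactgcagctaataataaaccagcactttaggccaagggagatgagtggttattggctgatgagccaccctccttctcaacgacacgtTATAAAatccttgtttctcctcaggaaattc
Cyp2a4: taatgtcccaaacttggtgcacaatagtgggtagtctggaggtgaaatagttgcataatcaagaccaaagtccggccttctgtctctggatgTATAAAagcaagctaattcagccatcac
Cyp2a5: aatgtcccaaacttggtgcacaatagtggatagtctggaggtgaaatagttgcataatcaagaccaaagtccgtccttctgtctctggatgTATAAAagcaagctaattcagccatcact

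The promoters of Cyp51 (chr5:4104698-4104817, minus strand) and Cyp1b1 (chr17:79715062-79715181, minus strand) are shown because a known regulatory motif of each was searched. The sterol element TCACCTCAG lay 88 bases before the start of Cyp51 and in 0.38% of all promoters. Since this element was searched as a known motif of Cyp51, a match there was likely beforehand, and the share of all promoters is background only. The AhR core GCGTG, read on the other strand as CACGC, lay 76 bases before the start of Cyp1b1. The core was found in 32.4% of all promoters. Among members it was found in 4 of 8 called higher, 3 of 12 called lower, 2 of 5 not called and 3 of 6 not tested. A match shows that the letters are there, not that a factor was bound.
Cyp51: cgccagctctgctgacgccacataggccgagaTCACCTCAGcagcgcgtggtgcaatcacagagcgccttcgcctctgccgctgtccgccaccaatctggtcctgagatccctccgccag
Cyp1b1: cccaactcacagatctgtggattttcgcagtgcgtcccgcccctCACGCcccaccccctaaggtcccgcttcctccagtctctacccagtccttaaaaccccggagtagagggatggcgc

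Transcript shares were tested for the 7 member genes with at least 2 listed transcripts at sufficient level, which were Cyp2e1, Cyp2j13, Cyp4a10, Cyp4a31, Cyp4b1, Cyp4f13 and Cyp4f16. None of their 14 transcripts was called as changed in share (limma on transformed shares, adjusted p below 0.05 and at least 10 percentage points). In all, 105 of 14003 transcripts were called, 0.75%, so few calls could be awaited among 14. At an unadjusted limma p under 0.05 the count was also 0 of 14, beside 2200 of all 14003. Some shares varied widely, with an SD of 29.4 points in UUO and 20.7 points in Sham for Cyp4f13-201. The largest difference was that of Cyp2j13-201, with 49.2% ± 5.47 of its gene's FPKM in UUO and 58.0% ± 7.996 in Sham (SD, n = 5 each, limma adjusted p = 0.405).

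The UUO libraries differed among themselves, in much the same order for most of the members called lower. Among the 18 members called lower, UUO 3 was the lowest UUO library in 11 and UUO 2 in 5, while UUO 4 was among the highest pair in all 18 and UUO 5 in 12. The sum of 20 proximal tubule markers followed the same order of libraries, at 9868, 5099, 3299, 15121 and 12482 FPKM in UUO 1 to 5, against 29015, 30772, 32201, 23416 and 34099 FPKM in Sham 1 to 5. All 20 of these markers were called lower, with a median log2 difference of -1.92, and none was at 0 in any library. The P450 sum and this marker sum were thus 3.28-fold and 3.26-fold lower in UUO, and the part of the marker change in the P450 result was not tested. Most of the marker sum came from Kap, on average 6299 of 9174 FPKM in UUO and 20977 of 29900 FPKM in Sham. Single markers were lower by 1.84-fold (Slc5a12) to 22.5-fold (Slc22a7). Kap and Slc7a13 also stand in the list of androgen-regulated genes given further below. Of the 18 members, 5 fell further than all but 2 of the 20 markers, namely Cyp4a12a, Cyp2d9, Cyp2d12, Cyp7b1 and Cyp4b1. In Sham, Sham 4 was the lowest library in 10 of the 18 members and had the lowest proximal tubule marker sum of its group. The 11 members called higher did not follow that UUO order. Among them UUO 5 was the lowest UUO library in 5 and UUO 4 in 3, while UUO 3 was the highest in 4.

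Markers of several other cell types were called higher, beside 58.5% of all genes. The 9 macrophage markers, all called higher, summed to 739 to 1375 FPKM in UUO and 33.2 to 51.1 FPKM in Sham, and the 9 fibroblast and pericyte markers, also all called higher, summed to 324 to 657 FPKM in UUO and 16.4 to 28.7 FPKM in Sham, with none at 0 in any library and 1 of each list through the filter by UUO alone. Of the T, B and neutrophil markers 7 of 7 tested were called higher, 3 of which passed the filter through UUO alone and so had to differ, at sums of 24.3 to 374 FPKM in UUO and 1.48 to 3.23 FPKM in Sham, and 3 of the 9 listed were at 0 in some Sham library. Their part in the rises of Cyp1b1, Cyp4f18 and the other members was not tested. Endothelial markers were higher in 4 of 7, a share near that of all genes, at sums of 118 to 173 FPKM in UUO and 54.3 to 160.5 FPKM in Sham, and urothelial markers in 5 of 6, at sums of 30.8 to 288 FPKM in UUO and 1.57 to 45.7 FPKM in Sham, with 2 of the 6 at 0 in some Sham library. Thick limb and distal markers fell in 5 of 7 and rose in 1, and collecting duct markers fell in 7 of 8.

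**Figure D5:**
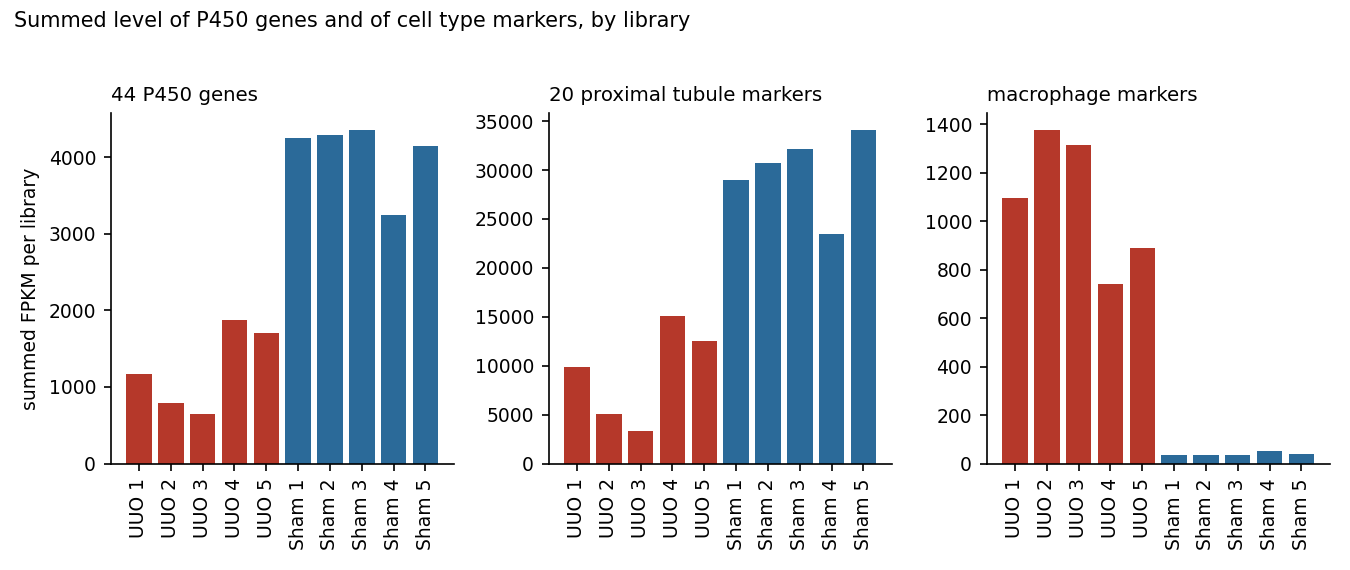
Summed FPKM per library of the 44 P450 genes (left), 20 proximal tubule markers (middle) and 9 macrophage markers (right), with UUO libraries in red and Sham libraries in blue; each axis starts at 0. UUO 3 has the lowest and UUO 4 the highest UUO value in the left and middle panels, and UUO 4 the lowest in the right panel. Kap holds most of the marker sum of the middle panel in every library.

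The counts of the gene lists outside the family stand beside 58.5% of all genes called higher and 16.1% lower, or 34.1% and 34.3% with median-of-ratios scaling, and their medians beside 0.40 over all genes. The partners that P450 enzymes need fell in part. Of 12 genes for electron supply and haem, 5 were called lower, 1 higher and 6 were not called, with a median log2 difference of -0.37. P450 oxidoreductase, Por, had 23.9, 29.05, 31.8, 32.1 and 46.01 FPKM in UUO 1 to 5, against 102, 95.2, 100.3, 79.7 and 95.5 FPKM in Sham 1 to 5. The groups did not overlap, at a log2 difference of -1.54, SE 0.15, limma adjusted p = 5.03e-06. Cytochrome b5, Cyb5a, was the highest of those that fell, at 101 ± 39.9 FPKM in UUO and 224 ± 28.9 FPKM in Sham (log2 difference -1.22, SE 0.24, limma adjusted p = 0.000782). The mitochondrial ferredoxin Fdx1, the last enzyme of haem synthesis Fech and the outer membrane cytochrome Cyb5b fell too, by log2 differences of -1.08, -1.001 and -0.84. Hmox1, which breaks haem down, was the gene that rose, at 32.95 ± 10.1 FPKM in UUO and 14.1 ± 1.87 FPKM in Sham (log2 difference 1.14, SE 0.17, limma adjusted p = 0.000108).

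Among 20 transcriptional regulators of P450 genes, 7 were called lower, 8 higher and 5 not called, with a median of -0.08. Of those called lower, Nr0b2 passed the filter through Sham alone and so had to differ. It had 0.0664 to 0.471 FPKM in UUO and 0.753 to 1.75 FPKM in Sham. Ppara had the largest log2 difference of those that fell, at 2.71 ± 1.49 FPKM in UUO and 8.25 ± 0.878 FPKM in Sham (log2 difference -1.39, SE 0.21, limma adjusted p = 0.000111). Hnf4a, a factor of hepatocyte and proximal tubule identity, was the highest of those that fell, at 66.4 ± 24.7 FPKM in UUO and 134 ± 17.4 FPKM in Sham (log2 difference -1.07, SE 0.22, limma adjusted p = 0.00101). Cebpb had the largest of those that rose, at 47.2 ± 18.1 FPKM in UUO and 13.1 ± 1.88 FPKM in Sham (log2 difference 1.71, SE 0.20, limma adjusted p = 2.08e-05). Ahr, the aryl hydrocarbon receptor gene, was picked out after its values were seen. It rose, at 5.1 ± 0.905 FPKM in UUO and 1.24 ± 0.345 FPKM in Sham (log2 difference 1.45, SE 0.13, limma adjusted p = 3.21e-06). Of 7 genes listed for the androgen response of the kidney, 5 were called lower and none higher. Slco1a1, a male-biased organic anion transporter, had the largest log2 difference, at 10.6 ± 8.04 FPKM in UUO and 148 ± 26.1 FPKM in Sham (-3.99, SE 0.45, limma adjusted p = 1.61e-05), and Kap, the kidney androgen-regulated protein, the highest mean, at 6299 ± 3497 FPKM in UUO and 20977 ± 3222 FPKM in Sham (-1.95, SE 0.41, limma adjusted p = 0.00123).

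Of 17 targets of PPAR alpha outside the P450 family, 11 were called lower, none higher and 6 were not called, with a median log2 difference of -0.73. Ehhadh, a peroxisomal enzyme of fatty acid oxidation, had the largest fall, at 51.5 ± 33.01 FPKM in UUO and 287 ± 44.9 FPKM in Sham (log2 difference -2.66, SE 0.35, limma adjusted p = 4.91e-05), and Acadm had the highest mean, at 79.1 ± 27.1 FPKM in UUO and 341 ± 39.7 FPKM in Sham (log2 difference -2.16, SE 0.22, limma adjusted p = 6.69e-06). Of 5 AhR targets outside the family, Aldh3a1 was called higher and Nqo1 lower, at log2 differences of 1.75 and -0.75. Gsta1 was also called higher (3.44), but it passed the filter through UUO alone, at 6.21 to 25.5 FPKM in UUO and 0 to 0.145 FPKM in Sham, and so had to differ.

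Of 15 eicosanoid enzymes without a Cyp symbol that were tested, 11 were called higher (73.33%, against 58.5% of all genes), 1 lower and 3 not called, at a median of 1.17, and 1 of the 15 passed the filter through UUO alone. Alox5ap, which presents arachidonic acid for leukotriene synthesis, had the largest log2 difference, at 17.5 ± 4.12 FPKM in UUO and 0.75 ± 0.278 FPKM in Sham (log2 difference 3.38, SE 0.17, limma adjusted p = 7.74e-08). Ephx2, the epoxide hydrolase that acts on the products of Cyp2j and Cyp2c enzymes, had the highest mean and was the one that fell, at 92.3 ± 40.2 FPKM in UUO and 217 ± 26.6 FPKM in Sham (log2 difference -1.33, SE 0.27, limma adjusted p = 0.000992). Ptgis and Tbxas1, P450 enzymes of prostacyclin and thromboxane synthesis that carry other symbols, both rose, at log2 differences of 1.32 and 0.44.

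In the retinoid pathway 10 of 14 genes tested were called higher (71.43%, against 58.5% of all genes), none lower and 4 were not called, at a median of 0.83, and 1 of the 14 passed the filter through UUO alone. Aldh1a2, which makes retinoic acid, had the largest log2 difference, at 35.4 ± 10.5 FPKM in UUO and 0.536 ± 0.192 FPKM in Sham (log2 difference 4.53, SE 0.18, limma adjusted p = 2.6e-08), and Dhrs3, a retinal reductase, had the highest mean, at 38.6 ± 3.39 FPKM in UUO and 33.3 ± 2.39 FPKM in Sham (log2 difference 0.21, SE 0.08, limma adjusted p = 0.0321). Of 18 other genes of sterol synthesis 10 were called lower, 3 higher and 5 not called, at a median of -0.38. Idi1 fell most, at 11.5 ± 3.63 FPKM in UUO and 44.1 ± 4.699 FPKM in Sham, with the log2 difference of -1.91 beside -1.96 for Cyp51. Hmgcs1 had the highest mean, at 86.2 ± 35.3 FPKM in UUO and 175 ± 11.3 FPKM in Sham, and Fdps rose most, at 8.07 ± 1.34 FPKM in UUO and 3.67 ± 0.575 FPKM in Sham (log2 difference 0.95, SE 0.12, limma adjusted p = 2.88e-05).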

How the data were processed

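RNA-seq libraries were made from total RNA of whole mouse kidneys (5 UUO, 5 Sham) with a stranded KAPA kit and read on an Illumina NovaSeq, per the labels' protocols. Reads were processed with cutadapt, HISAT2 and StringTie on GRCm38, per the submitters' processing notes, which name neither versions nor the gene annotation. The authors deposited 1 value per gene and 1 per transcript and library, whose header names no unit. The deposited values were taken as FPKM, because they are decimals whose sums differ between libraries. If they are TPM of a larger table, each library differs by 1 factor, which the scaling alternatives cover. The file lists 13920 genes, all protein-coding. Read depth is unknown, since the files hold no counts. Low transcript values gathered at 1 product of FPKM and length (13 to 31 transcripts per library in UUO and 45 to 86 in Sham), which was not clear enough in UUO to recover reads.

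Values were transformed to log2(FPKM + 1). Genes reaching 0.5 FPKM in 5 or more libraries entered the test with limma 3.58.1 (R 4.3.3, empirical Bayes with a trend), UUO minus Sham, with Benjamini-Hochberg adjustment over 13202 genes and calls at an adjusted p below 0.05. Transcript shares were tested with limma on arcsine square-root values, for genes whose transcripts summed to 1 FPKM or more in each library, and transcripts with a mean share from 5%. Each procedure was tested on simulated data. Sequences came from RefSeq promoters (GRCm38.p6) and GENCODE M21 transcripts, aligned with edlib, and 36 of 44 gene spans in the file equal those of GENCODE M21. Genes with coding identity of at least 90% were also summed, an alternative chosen after seeing the data. Alternatives were other pseudocounts, filters, scalings, no trend, a replicate block and leaving out each library.

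Members and gene lists were chosen with earlier results of these data known. Values in every library are given for members averaging at least 5 FPKM in a group, and for those called higher that average at least 1 FPKM in UUO. From each list outside the family, the called genes with the largest difference, the highest mean and the largest change in the rarer direction are named; cell type markers are given as counts and sums.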

Additional observations from a re-analysis of the deposited data

Results flagged for a closer look

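In 4 of 88 groups of 5 libraries (44 genes in 2 groups), the value of 1 library lay apart from the others by more than Dixon's 95% limit (a gap of 0.71 of the range), and chance alone gives about 1 in 20 such groups. Cyp1b1 was at 14.4 FPKM in UUO 5 and at 23.0 to 24.3 FPKM in the other UUO libraries. Cyp2j5 was at 514 FPKM in Sham 4 and at 643 to 675 FPKM in the other Sham libraries. Cyp4a12a was at 166 FPKM in Sham 1 and at 78.0 to 99.7 FPKM in the other Sham libraries. Cyp20a1 was at 10.4 FPKM in Sham 4 and at 6.71 to 7.76 FPKM in the other Sham libraries. All 4 genes kept their call and direction in each of 19 alternatives, those without the library concerned included.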

How the results depend on the processing

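Of the 29 members called, 24 kept their call and direction in every alternative run, 17 of 18 lower and 7 of 11 higher; the exceptions are Cyp4a10, Cyp2j6, Cyp4f17, Cyp39a1 and Cyp3a13. Leaving out 1 library gave 11 to 12 members higher and 17 to 19 lower (Cyp2 3 and 10 to 11, Cyp4 4 and 5 to 7, other families 4 to 5 and 2), 0 changed transcript shares, and 7343 to 8011 genes higher and 1987 to 2162 lower. Median-of-ratios scaling gave 4507 genes higher and 4522 lower, and quantile normalization 3970 and 4793, with 2 members of the other families higher. With equal sums 13 members were higher and 18 lower, and with near-identical copies summed 11 of 34 were higher and 15 lower. Under median-of-ratios scaling the sign turned for Cyp2j6 (-0.0302), Cyp2j9 (-0.26), Cyp2r1 (-0.12), Cyp4f13 (-0.38), Cyp27a1 (-0.33) and Cyp39a1 (-0.00319), and under quantile normalization for Cyp2j9 (-0.31), Cyp2r1 (-0.57), Cyp4f13 (-0.33), Cyp27a1 (-0.0838) and Cyp39a1 (-0.0855). Cyp2j7 turned to 0.0410 with equal sums; leaving out 1 library gave -0.138 to 0.0535, above 0 without UUO 2 or UUO 3. These scalings shift all genes by 1 factor per library or match their distributions, and no other cause was tested.

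With the replicate number as a block, 11 members were called higher and 18 lower (Cyp2 3 and 10, Cyp4 4 and 6, other families 4 and 2), as without it, 0 transcript shares changed, and 7319 genes were higher and 1953 lower. The numbers did not pair the libraries: the deviations of libraries with the same number correlated at 0.03, -0.16, -0.11, -0.26 and 0.15 for numbers 1 to 5. Changes of genes under 1 FPKM rest on values whose read support is unknown.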
